A study of Mus musculus with 6 samples.

Results

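The genes described here are the Zfp zinc finger genes expressed in J1 mouse embryonic stem cells, a line from strain 129S4/SvJae. They were selected on symbol and level: every gene named Zfp plus a number whose mean over 6 RNA sequencing libraries reached 2 FPKM (reads divided by transcript length and by library depth), leaving out the pluripotency marker Zfp42. This gave 266 of the 354 genes with such a symbol, among 20460 genes in all. The members were thus chosen by mean FPKM over both treatments, which is given as a description; the difference between treatments was not part of the rule. The 3 genes just inside the limit were Zfp235 (mean 2.02 FPKM), Zfp114 (2.04 FPKM) and Zfp109 (2.05 FPKM), and the 3 just outside were Zfp69 (1.98 FPKM), Zfp563 (1.98 FPKM) and Zfp316 (1.87 FPKM).

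The study asked what CARM1, an arginine methyltransferase, does when retinoic acid (RA), formed from vitamin A, makes embryonic stem cells differentiate. The 6 libraries came from 3 lines, of which the first was wild-type, the second expressed a scramble short hairpin RNA (shRNA) and the third expressed a hairpin that targets Carm1. Each line grew with LIF on gelatin, and for each, 1 library was made after 48 h in ethanol (vehicle) and 1 after 48 h in 1 µM RA. Each shRNA was represented by 1 line, and there was 1 library per line and treatment, so no replicate error exists within a group. Values below are always given in the order wild-type, scramble and Carm1 shRNA. Carm1 itself stood at 37.0, 36.1 and 8.49 FPKM with vehicle and at 29.5, 29.9 and 6.73 FPKM with RA, lowest in the line that carries its shRNA.

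Most Zfp genes encode C2H2 zinc finger proteins, in which cysteine and histidine pairs hold a zinc ion and tandem fingers read bases of DNA. Many of them also carry a Krüppel-associated box (KRAB), whose A box binds the corepressor Trim28. Trim28 brings the histone methyltransferase Setdb1 and heterochromatin protein HP1 to the bound site, and in embryonic stem cells this system is known for silencing retroelements and for keeping imprints. A few genes with a Zfp symbol encode other proteins, among them the CCCH finger proteins of the Zfp36 family, which bind AU-rich messenger RNAs and promote their decay.

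The A box coding sequences of 6 members are shown first, because this short motif divides the family. They were read 5′ to 3′ from GENCODE M21 transcripts of build GRCm38, and the capitals mark the codons of the residues that the search held fixed (Asp-Val, Phe and Glu-Trp).
Zfp57: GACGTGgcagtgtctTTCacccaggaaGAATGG
Zfp809: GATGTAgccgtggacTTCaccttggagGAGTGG
Zfp568: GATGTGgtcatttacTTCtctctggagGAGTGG
Zfp459: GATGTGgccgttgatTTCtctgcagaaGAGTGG
Zfp819: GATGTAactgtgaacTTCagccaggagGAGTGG
Zfp59: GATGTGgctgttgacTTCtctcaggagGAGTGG
The fixed codons differed between members only by synonymous bases, and the letters between them varied more.

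The finger types are shown by a C2H2 finger from each of the silencing factor Zfp809 and the stem cell factor Zfp296, and by a CCCH finger of Zfp36l2, with the codons of the zinc-holding cysteines and histidines in capitals.
Zfp809 C2H2 finger: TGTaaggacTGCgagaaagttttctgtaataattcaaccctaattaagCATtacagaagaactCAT
Zfp296 C2H2 finger: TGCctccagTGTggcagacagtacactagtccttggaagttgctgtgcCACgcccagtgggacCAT
Zfp36l2 CCCH finger: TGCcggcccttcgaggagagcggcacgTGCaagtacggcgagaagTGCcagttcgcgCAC
The A box pattern was found in 110 of the 266 members and was absent from 156; because the pattern is literal, some proteins with a divergent KRAB domain fall in the second class. At least 1 C2H2 finger was found in 257 members, with a median of 10 fingers and a highest count of 33, in Zfp142 and Zfp462. A box members had a median of 11 fingers and the others a median of 8. The 4 members with a CCCH match were Zfp330, Zfp36, Zfp36l1 and Zfp36l2. No C2H2 match was found in 9 members, which were these 4 together with Zfp185, Zfp259 (now called Zpr1), Zfp365, Zfp703 and Zfp839.

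The family was expressed at low levels. The median member had a mean of 6.29 FPKM against 13.0 FPKM for all 11227 genes tested, 179 members stayed under 10 FPKM, 7 reached 50 FPKM and 2 reached 100 FPKM. Members with an A box had a median of 4.51 FPKM and those without had 8.33 FPKM. The members summed to 2922, 3012 and 3279 FPKM with vehicle and to 3009, 3094 and 3066 FPKM with RA, so that the Carm1 shRNA library was the highest of the vehicle libraries. All 266 members passed the filter on low values that preceded the test, a mean of 1 FPKM or more.

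The most abundant member was Zfp207, whose protein (BuGZ) acts in spindle assembly, at 182, 177 and 168 FPKM with vehicle and 172, 158 and 158 FPKM with RA. The treatments overlapped for this gene, and its fitted RA difference of -0.11 on the log2 scale missed the threshold (adjusted p = 0.174 by limma); it was called lower with median-of-ratios scaling (-0.27) and stood at 0.04 with quantile normalization. Zfp57, the KRAB protein that keeps DNA methylation at imprinted regions, followed at 167, 185 and 232 FPKM with vehicle and 163, 113 and 145 FPKM with RA. All RA libraries lay below all vehicle libraries, but the wild-type pair differed by little. The fitted change of Zfp57 was -0.47 ± 0.15 (SE; adjusted p = 0.0369), and it did not pass without the scramble line (-0.36) or without the Carm1 shRNA line (-0.37), nor with a pseudocount of 0.1 or quantile normalization. The other 8 of the 10 highest members were Zfp961, Zfp106, Zfp330, Zfp281, Zfp706, Zfp36l1, Zfp219 and Zfp828, with means between 40.9 and 73.9 FPKM.

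With the values as deposited, a smaller share of the Zfp genes than of all genes was called with RA. Of the 266 members, 89 rose (33.5%, against 42.9% of all genes tested), 48 fell (18%, against 20.7%) and 129 did not pass the test at an adjusted p under 0.05. Large changes were fewer as well: 10 members (3.76%) changed by at least 1 on the log2 scale against 10.3% of all genes tested, and 226 members (85.0%) stayed within 0.5 of no change against 67.9%. The median change was 0.11 for the members and 0.14 for all genes. Among all genes that reached a mean of 2 FPKM, whatever their name, 41.2% rose and 21.8% fell. These counts and medians describe the family; no test of the family as a set was made.

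Counts by library restate this split, since they use the same deposited values. The lowest RA library exceeded the highest vehicle library for 86 members, against 40.5% of all genes, and the highest RA library lay below the lowest vehicle library for 48, against 20.5%. The sign of the response was positive in all 3 lines for 127 members, negative in all 3 for 77, and mixed for 62. These signs were not counted over all genes, so the member counts have no share to be set against. A mean of 2 FPKM can be reached through 1 treatment alone. This held for 10 members that reached it with RA but not with vehicle, 7 of which were among those that rose, and for 5 members the other way, 2 of which fell. Zfp703, Zfp362 and Zfp867 are among the 10, and Zfp459 and Zfp658 among the 5; such genes had to differ to be counted. Of the 251 members at 2 FPKM or more under both treatments, 82 rose and 46 fell. All genes were not counted under this limit, so these counts too have no share to be set against.

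The direction of the family depended on how the libraries were scaled to each other. With median-of-ratios scaling, which lowered the median of all genes from 0.14 to 0.002, 55 members rose (20.7%, against 32.6% of all genes) and 80 fell (30.1%, against 32.3%), so that 40.7% of the calls were higher against 65.0% with the values as deposited. With quantile normalization 27 rose (10.2%, against 26.7%) and 135 fell (50.8%, against 34.3%, where the deposited values gave a smaller share than that of all genes), with a median of -0.23 for the members and -0.05 for all genes. The calls that kept their direction under all 3 were 27 higher (10.2%, against 23.5% of all genes tested) and 47 lower (17.7%, against 19.2%). A smaller share of the family than of all genes rose under each of the 3. Without the scramble line 48 rose and 27 fell, against 30.3% and 12.4% of all genes, and without the Carm1 shRNA line 71 rose and 24 fell, against 35.1% and 13.4%.

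**Figure D1:**
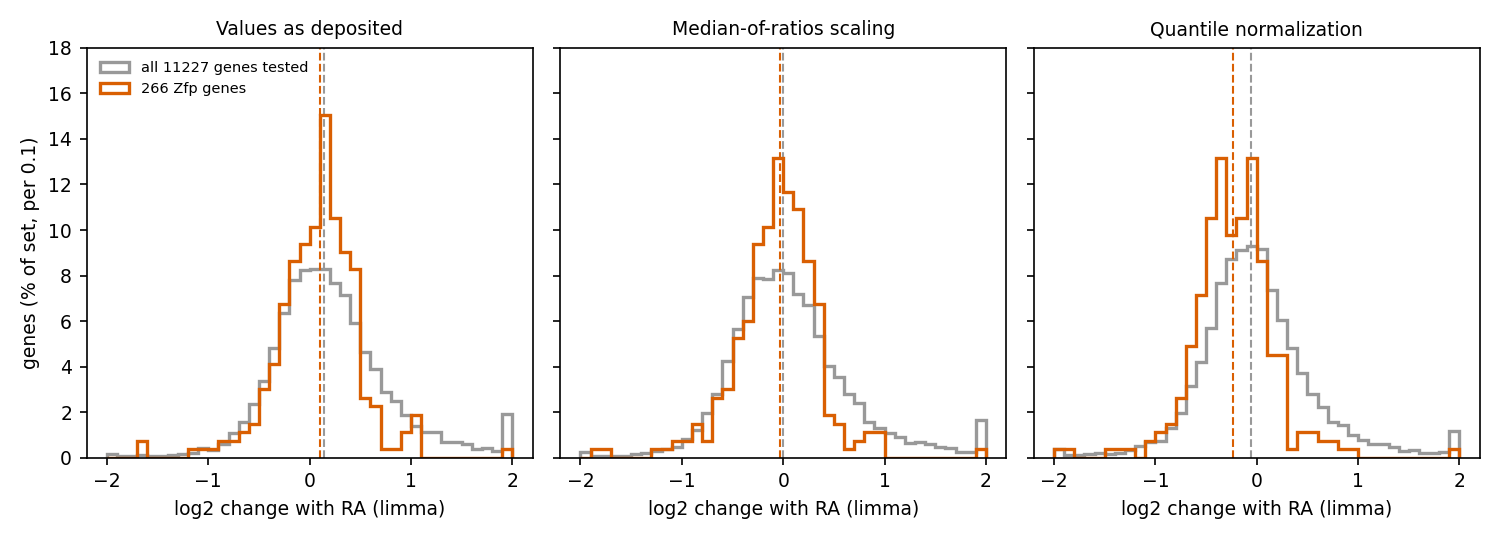
Share of genes in each bin of 0.1 (y axis, %) by fitted log2 change with RA (x axis) for all 11227 genes tested (grey) and the 266 Zfp genes (orange), under each scaling of the libraries. Values beyond 2 in either direction are counted in the end bins, and dashed lines mark the medians, which for the Zfp genes move from 0.11 as deposited to -0.03 with median-of-ratios scaling and -0.23 with quantile normalization.

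The 15 highest-ranked members that rose and the 15 that fell kept their calls under all 3 scalings. They are shown by library in the plot of named RA genes. Genes were ranked by their smallest response over the 3 lines.

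**Figure D2:**
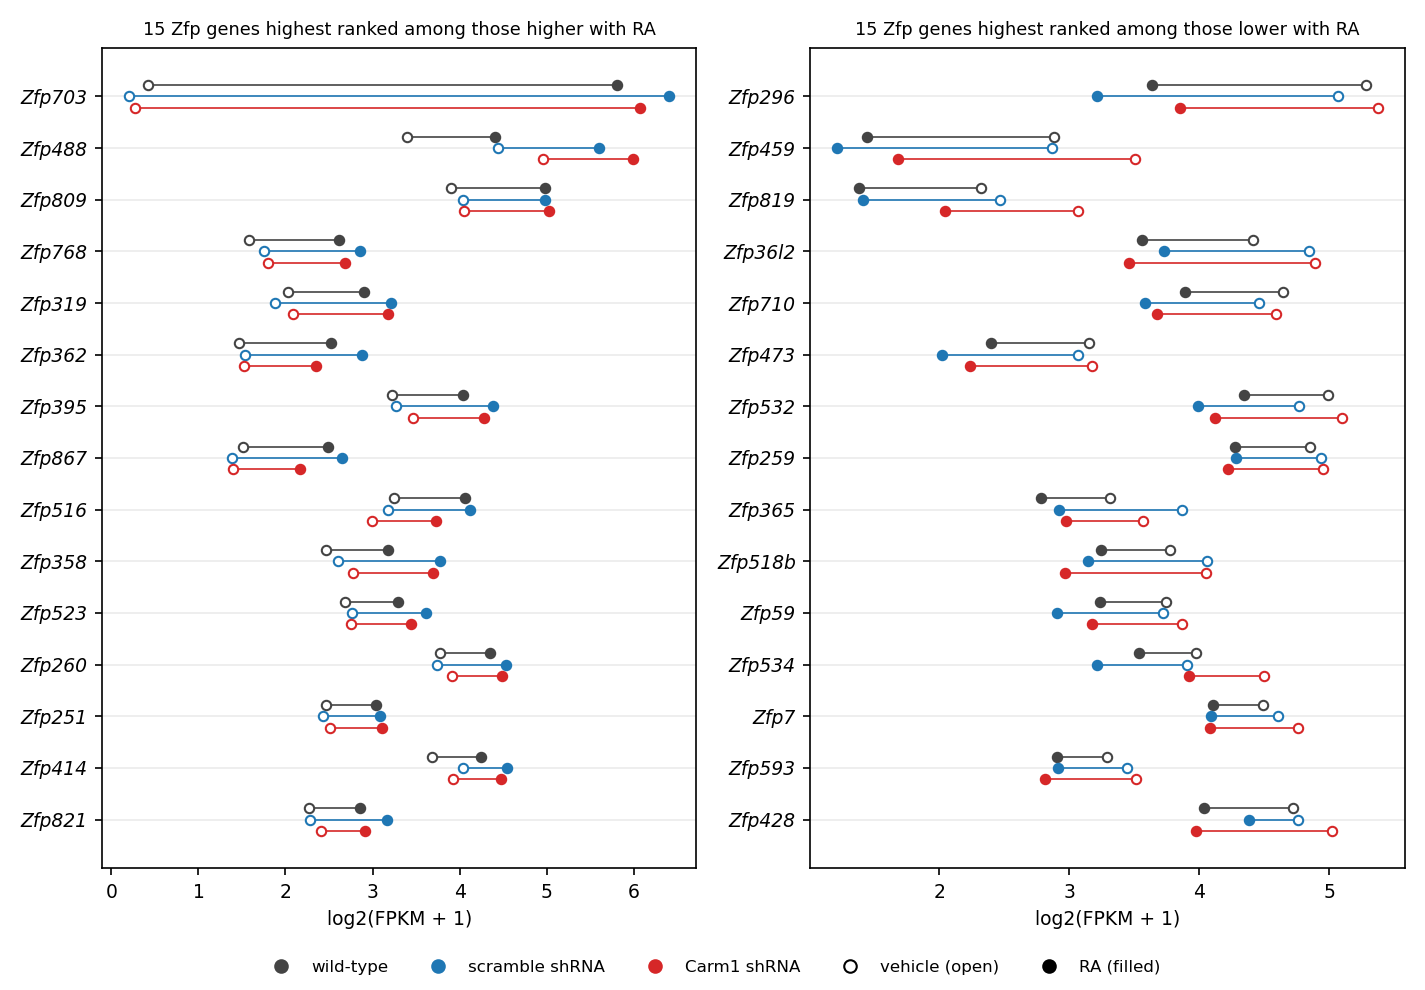
Level in each library, as log2(FPKM + 1), of the 15 highest-ranked Zfp genes that rose with RA (left) and the 15 that fell (right). Open points are vehicle and filled points RA, joined by a line for each of the wild-type (grey), scramble (blue) and Carm1 shRNA (red) lines; every line moves the same way for each gene, and Zfp703 moves farthest.

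Zfp703 showed the largest rise. It encodes a transcriptional corepressor of the NET family and had no match to the C2H2 pattern. It lies on chromosome 8 from 28087808 to 28091934 (build mm9, as are all gene positions here), and stood at 0.338, 0.151 and 0.207 FPKM with vehicle and 55.1, 84.2 and 66.3 FPKM with RA. It was near 0 in every vehicle library and among the more abundant members in every RA library, a rise of 163-fold in the wild-type, 556-fold in the scramble and 320-fold in the Carm1 shRNA line. The fitted change was 5.80 ± 0.16, given as a description, since Zfp703 reached the mean of 2 FPKM through its RA libraries alone. The vehicle levels correspond to an estimated 34.0, 11.6 and 19.9 reads, so the size of the ratio is loosely set. The related gene Zfp503 was not a member, with a mean of 1.37 FPKM; it stood at 0.0623, 0 and 0.0479 FPKM with vehicle and at 2.83, 3.35 and 1.90 FPKM with RA.

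Zfp488, which works with Olig2 in oligodendrocytes, was the only other member that rose by at least 1 in every line on the log2(FPKM + 1) scale, giving 2 members where 5.22% of all genes did so. By ratios of FPKM, with no pseudocount, the low genes Zfp768, Zfp319, Zfp362 and Zfp867 also rose at least 2-fold in every line. It stood at 9.55, 20.7 and 30.1 FPKM with vehicle and 20.2, 47.6 and 62.8 FPKM with RA. The treatments overlapped because the lines differed, yet each line about doubled its own level, and the fitted change was 1.07 ± 0.07 (adjusted p = 0.000552).

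Zfp809 (chromosome 9, 22030147 to 22047798), a KRAB protein that silences proviruses of murine leukemia virus in embryonic stem cells, had 14.0, 15.5 and 15.6 FPKM with vehicle and 30.5, 30.7 and 31.7 FPKM with RA. The lines lay close together under each treatment and the treatments did not overlap. The fitted change was 1.00 ± 0.06 (adjusted p = 0.000603).

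The remaining 12 named genes that rose were Zfp768, Zfp319, Zfp362, Zfp395, Zfp867, Zfp516, Zfp358, Zfp523, Zfp260, Zfp251, Zfp414 and Zfp821, with changes between 0.54 and 1.10. Zfp319 went from 3.07, 2.69 and 3.26 FPKM to 6.46, 8.28 and 8.07 FPKM (1.10 ± 0.10), and Zfp768 from 1.985, 2.38 and 2.48 FPKM to 5.12, 6.22 and 5.41 FPKM (1.00 ± 0.07). For both, every RA library was above every vehicle library. Zfp516, a transcription factor of brown fat, went from 8.51, 8.02 and 6.97 FPKM to 15.7, 16.4 and 12.3 FPKM (0.83 ± 0.07). Zfp260, a regulator of heart development, went from 12.7, 12.4 and 14.1 FPKM to 19.5, 22.2 and 21.4 FPKM (0.65 ± 0.08).

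Zfp296 led the members that fell. Its protein binds Klf4 and is known from embryonic stem cells and from reprogramming. Zfp296 (chromosome 7, 20162636 to 20166005) stood at 37.9, 32.5 and 40.4 FPKM with vehicle and 11.4, 8.26 and 13.5 FPKM with RA. The treatments were far apart in every line, and the fitted change was -1.67 ± 0.09 (adjusted p = 0.000359). Zfp459, an A box member, fell from 6.37, 6.29 and 10.4 FPKM to 1.72, 1.33 and 2.21 FPKM (-1.64 ± 0.09), and it reached the mean of 2 FPKM through its vehicle libraries alone. Zfp296 and Zfp459 were the 2 members that fell by at least 1 in every line on the log2(FPKM + 1) scale, against 0.802% of all genes; by ratios of FPKM with no pseudocount, Zfp819 did so too.

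Zfp819, which encodes a KRAB protein of pluripotent and germ cells, dropped with RA from 3.997, 4.52 and 7.39 FPKM to 1.61, 1.67 and 3.14 FPKM (-1.003 ± 0.06, adjusted p = 0.000567). The Carm1 shRNA line was the highest under each treatment. Zfp36l2, an mRNA decay factor, fell from 20.3, 27.7 and 28.7 FPKM to 10.8, 12.3 and 10.02 FPKM (-1.13 ± 0.12, adjusted p = 0.00137). Its relatives had smaller fitted changes: Zfp36l1 had 53.7, 53.0 and 53.5 FPKM with vehicle and 49.5, 48.8 and 34.5 FPKM with RA, and Zfp36 had 6.34, 5.81 and 7.46 FPKM and then 4.58, 7.16 and 6.94 FPKM. Neither passed the test (adjusted p = 0.0886 and 0.634), although Zfp36l1 passed with median-of-ratios scaling (-0.44) and Zfp36 with quantile normalization (-0.42).

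The remaining 11 named genes that fell were Zfp710, Zfp473, Zfp532, Zfp259, Zfp365, Zfp518b, Zfp59, Zfp534, Zfp7, Zfp593 and Zfp428, with changes between -0.53 and -0.91. Zfp473, whose human ortholog acts with the U7 ribonucleoprotein in histone mRNA processing, went from 7.89, 7.37 and 8.06 FPKM to 4.29, 3.05 and 3.72 FPKM (-0.91 ± 0.08). Zfp710 went from 24.1, 21.1 and 23.04 FPKM to 13.8, 10.97 and 11.8 FPKM (-0.85 ± 0.07). In each of these genes other than Zfp534 the treatments did not overlap. Zfp534 had 14.7, 14.0 and 21.6 FPKM with vehicle and 10.6, 8.27 and 14.1 FPKM with RA, so that the Carm1 shRNA library with RA reached the scramble library with vehicle.

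Of 35 members listed for a known role, 12 rose, 10 fell and 13 did not pass; 8 rose and 9 fell under all 3 scalings. The list was drawn up with earlier results known. Zfp281, a pluripotency factor, stood at 51.9, 56.0 and 62.3 FPKM with vehicle and 50.2, 51.4 and 61.4 FPKM with RA, which overlapped (-0.06, adjusted p = 0.412; called lower with median-of-ratios scaling, at -0.22). Zfp568, the KRAB repressor of a placental Igf2 transcript, stood at 36.6, 36.1 and 40.6 FPKM and then 43.4, 36.6 and 48.8 FPKM (0.17, adjusted p = 0.101). Zfp462, a large C2H2 protein, fell from 18.7, 16.8 and 18.4 FPKM to 15.3, 10.2 and 10.1 FPKM (-0.58 ± 0.11, adjusted p = 0.00832), a call that was lost without the scramble line (-0.54). Neither Zfp143 (-0.20, adjusted p = 0.0531), Zfp217 (-0.13, adjusted p = 0.181) nor Zfp423 (0.23, adjusted p = 0.258) passed, and of these Zfp143 and Zfp217 passed as lower with either other scaling.

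Several of these factors of chromatin and transcription rose by less than 2-fold. Zfp326, a subunit of the DBIRD complex that links RNA polymerase to splicing, went from 12.03, 11.1 and 11.04 FPKM to 19.4, 20.2 and 15.9 FPKM (0.65 ± 0.08, adjusted p = 0.00231). Zfp410, the activator of Chd4, went from 10.2, 10.7 and 11.9 FPKM to 13.6, 14.9 and 15.7 FPKM (0.40 ± 0.06, adjusted p = 0.00409). Zfp687 and Zfp592, which with Zfp532 are partners in a chromatin complex, rose by 0.42 ± 0.07 (adjusted p = 0.00511) and 0.54 ± 0.09 (adjusted p = 0.00528), whereas Zfp532 fell by 0.80 on the log2 scale (adjusted p = 0.00140). Zfp148 rose by 0.54 (adjusted p = 0.00281) and Zfp91, a ubiquitin ligase, by 0.43 (adjusted p = 0.00589). Zfp644, a partner of the methyltransferases G9a and GLP, rose by 0.32 (adjusted p = 0.00893) and Zfp346, which binds double-stranded RNA, by 0.30 (adjusted p = 0.0112), and both calls were lost with either other scaling and without the scramble line (Zfp644, at 0.29) or the Carm1 shRNA line (Zfp346, at 0.27). Zfp451, a SUMO ligase, fell by 0.20 on the log2 scale (adjusted p = 0.0346), a call lost without any 1 of the lines. Zfp292, Zfp384, Zfp335 and Zfp322a did not pass (adjusted p = 0.0873, 0.662, 0.0886 and 0.274), although Zfp292 and Zfp322a passed as lower with either other scaling. Chd4 itself stood at 116, 109 and 110 FPKM with vehicle and 112, 122 and 111 FPKM with RA. Zfp687 shares 142 bases of its locus with Pi4kb, so reads there could not be told apart.

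Factors of translation and ribosome assembly were among the members that fell. Zfp598, the ubiquitin ligase of stalled ribosomes, went from 34.4, 34.9 and 39.1 FPKM to 28.3, 29.6 and 28.1 FPKM (-0.32 ± 0.08, adjusted p = 0.0145; not called without the Carm1 shRNA line, at -0.25). Zfp622, whose yeast counterpart matures the large ribosomal subunit, went from 29.8, 29.5 and 33.4 FPKM to 24.2, 22.9 and 23.3 FPKM (-0.38 ± 0.07, adjusted p = 0.00746). Zfp593, whose yeast counterpart exports that subunit, went from 8.78, 9.87 and 10.4 FPKM to 6.49, 6.55 and 6.03 FPKM (-0.54 ± 0.08, adjusted p = 0.00387). These 3 genes are examples from the named genes and not a tested theme.

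Members with and without an A box were counted side by side; the difference between the classes was not tested. Of the 110 members with an A box, 36 rose (32.7%) and 17 fell (15.5%), with a median change of 0.10. Of the 156 members without it, 53 rose (34.0%) and 31 fell (19.9%), with a median of 0.12. With median-of-ratios scaling 19 A box members rose and 34 fell (17.3% and 30.9%), against 36 and 46 of the others (23.1% and 29.5%). With quantile normalization 6 rose and 64 fell (5.45% and 58.2%), against 21 and 71 of the others (13.5% and 45.5%). Under all 3, 6 A box members rose and 16 fell (5.45% and 14.5%), against 21 and 31 of the others (13.5% and 19.9%). Without the scramble line the A box counts were 13 and 8, and without the Carm1 shRNA line they were 27 and 6. Of the 139 members with 10 fingers or more, 38 rose (27.3%) and 18 fell (12.9%), with the values as deposited. Of the 118 with 1 to 9 fingers, 48 rose (40.7%) and 26 fell (22.0%), against 42.9% and 20.7% of all genes tested. The median levels of these finger classes were 4.68 and 9.47 FPKM, and their counts were not made under the other scalings.

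The reads were 51 bases long, and recently duplicated zinc finger genes share stretches of that length. For the median member, 0.805% of the 51-base words of its transcripts occurred in another gene; 97 members shared none and 43 shared at least 20%. In these 43 members, whose counts are uncertain, 11 rose and 10 fell, and in the other 223, 78 rose and 38 fell. Zfp82 shared the most, at 94.4%. Among the named genes, Zfp534 (69.8%), Zfp593 (64.3%), Zfp36l1 (56.7%), Zfp59 (51.8%), Zfp808 (45.4%), Zfp532 (39.0%), Zfp330 (30.8%), Zfp106 (25.2%) and Zfp414 (24.9%) also passed 20%, and their levels are uncertain to that extent. Zfp809 and Zfp57 shared none.

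Promoters were matched in RefSeq (build GRCm38.p6, 250 bases before to 50 bases after the start) for 216 of the 266 members. They held a median of 15 CpG pairs against 22 for the 9088 genes tested that had a promoter, and 10.5 for members with an A box. The GC box letters GGGCGG, on either strand, were found in 45.8% of members' promoters against 67.9% for genes tested and 35.9% for all 27025 promoters. The nuclear receptor letters AGGTCA, on either strand, were found in 11.1% of members, 11.7% of genes tested and 16% of all promoters. The direct repeat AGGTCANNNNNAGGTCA was in 0 of the members' promoters and in 2 of all promoters. AGGTCA was in 7 of 71 promoters of members that rose and 5 of 38 of members that fell.

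The promoters of Zfp296, which fell most, and Zfp809, which rose, are printed as examples, with matches to GGGCGG and AGGTCA on either strand in capitals. Zfp296 is at chr7:19577037-19577336 and Zfp809 at chr9:22225453-22225752, both on the plus strand of GRCm38.p6.
Zfp296 promoter: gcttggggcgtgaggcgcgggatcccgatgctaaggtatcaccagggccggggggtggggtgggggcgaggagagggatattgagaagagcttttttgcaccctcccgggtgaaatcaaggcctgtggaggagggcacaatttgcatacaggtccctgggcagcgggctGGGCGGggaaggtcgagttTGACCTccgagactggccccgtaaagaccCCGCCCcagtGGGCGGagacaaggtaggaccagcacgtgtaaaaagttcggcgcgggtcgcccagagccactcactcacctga
Zfp809 promoter: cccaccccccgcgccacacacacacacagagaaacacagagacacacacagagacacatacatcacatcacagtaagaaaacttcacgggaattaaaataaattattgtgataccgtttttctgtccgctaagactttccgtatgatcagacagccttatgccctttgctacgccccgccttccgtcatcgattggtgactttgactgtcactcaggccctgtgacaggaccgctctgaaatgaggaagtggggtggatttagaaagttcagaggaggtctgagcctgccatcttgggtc
The Zfp296 stretch held 19 CpG pairs, 3 matches to GGGCGG and 1 to AGGTCA. The Zfp809 stretch held 11 CpG pairs and neither set of letters. A match describes letters only and is not a site in use.

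Zfp genes lie in clusters. With at most 500 kb between neighbours, 133 of the 266 members fell into 23 clusters of 3 to 15 genes, and 81 of the 110 A box members were among them. Chromosome 7 held 65 members, of which 52 lay in its 8 clusters, followed by 35 members on chromosome 17 and 22 on chromosome 8. Clustered members rose in 43 cases (32.3%) and fell in 17 (12.8%), with a median of 0.11. Members outside clusters rose in 46 (34.6%) and fell in 31 (23.3%), with a median of 0.10. Of all genes tested 42.9% rose and 20.7% fell, with a median of 0.14. The difference between these sets was not tested. In 10 clusters the called genes all rose, in 2 they all fell, in 10 both directions occurred and in 1 none passed. These are counts with the values as deposited. Under all 3 scalings 10 clustered members rose (7.52%) and 17 fell (12.8%). Outside clusters 17 rose (12.8%) and 30 fell (22.6%), against 23.5% and 19.2% of all genes tested.

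**Figure D3:**
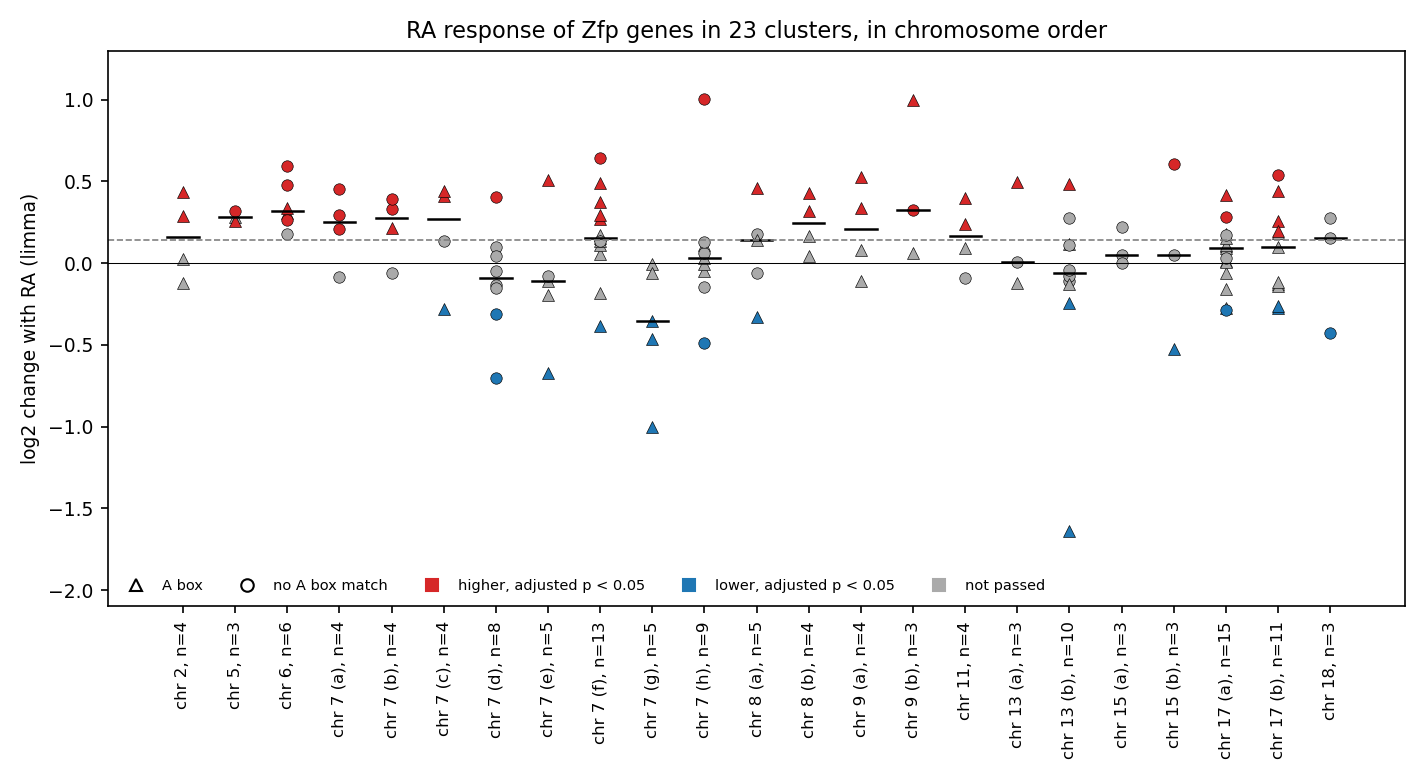
Fitted log2 change with RA (y axis) of each member of the 23 clusters (x axis, by chromosome, letters separating clusters on the same chromosome). Triangles have an A box and circles do not, red genes rose, blue genes fell and grey genes did not pass; black bars are cluster medians and the dashed line is the median of all genes tested, 0.14. The cluster chr 7 (g), with a median of -0.35, has no gene that rose, and the chr 6 cluster, with a median of 0.32, has no gene that fell.

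The chromosome 6 cluster (47785660 to 48036592) held 6 members, 5 of which rose. Zfp282 went from 4.25, 4.45 and 5.10 FPKM to 6.04, 8.48 and 7.98 FPKM (0.59 ± 0.09, adjusted p = 0.00383). Zfp746, whose product PARIS represses Ppargc1a, went from 5.54, 7.17 and 7.12 FPKM to 8.29, 10.5 and 10.05 FPKM (0.48 ± 0.06, adjusted p = 0.00227). In both genes all RA libraries were above all vehicle libraries. Zfp777 (0.34) and Zfp398 (0.31) rose with overlapping treatments. The cluster median was 0.32 as deposited, 0.19 with median-of-ratios scaling and 0.08 with quantile normalization, and 2 of the members rose under all 3. Without the scramble line only Zfp282 and Zfp746 of the 6 were called.

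The chromosome 7 cluster from 50432958 to 50873649 held 5 members, each with an A box. Besides Zfp819, Zfp936 fell from 25.4, 19.3 and 28.4 FPKM to 19.96, 12.9 and 19.6 FPKM (-0.46 ± 0.07, adjusted p = 0.00412). Zfp658 fell from 2.50, 2.56 and 3.003 FPKM to 1.85, 2.17 and 1.65 FPKM (-0.35 ± 0.10), and it too reached 2 FPKM through vehicle alone. The other two, Zfp715 (-0.01) and Zfp719 (-0.06), did not pass. The same 3 genes were lower under all 3 scalings, and Zfp658 was not called without the Carm1 shRNA line.

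Large clusters held mixed responses. The cluster of 15 members on chromosome 17 (21145905 to 23736454) had 2 genes that rose, 1 that fell and 12 that did not pass; without the scramble line it had 0 called genes. The 13 members on chromosome 7 from 30553571 to 30954746, which include Zfp568 and Zfp260, had 5 that rose (2 without the scramble line) and 1 that fell. The cluster of 10 members on chromosome 13 (67229164 to 67890017) included Zfp459, at -1.64, and had 1 member that rose and 2 that fell. Without the scramble line or without the Carm1 shRNA line 1 of its members fell. On chromosome 9, Zfp809 rose by 1.00 beside Zfp653 and Zfp599 in a cluster of 3 with a median of 0.33.

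The corepressor that the A box binds fell with RA. Trim28 stood at 752, 836 and 891 FPKM with vehicle and 510, 456 and 503 FPKM with RA, with no overlap and a change of -0.75 ± 0.09 (adjusted p = 0.00165). Setdb1 stood at 32.2, 29.5 and 32.1 FPKM and then 29.0, 29.6 and 27.5 FPKM and did not pass (adjusted p = 0.198). Of 22 genes of the KRAB silencing machinery that were tested, 4 rose (18.2%, against 42.9% of all genes tested) and 7 fell (31.8%, against 20.7%). Their median was -0.11, against 0.14 for all genes. With median-of-ratios scaling 2 rose and 13 fell, where 32.6% and 32.3% of all genes tested did. With quantile normalization 3 rose and 6 fell, where 26.7% and 34.3% of all genes did. The share of these 22 genes that fell was thus below that of all genes with quantile normalization. The difference from all genes was not tested. Under all 3 scalings Chd3 and Nr2c1 rose and Trim28, Uhrf1, Smarcad1, Cbx3 and Atrx fell.

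Among these partners, Uhrf1, which recruits DNA methyltransferase to replicated DNA, went from 172, 175 and 181 FPKM to 125, 107 and 114 FPKM (-0.60 ± 0.08, adjusted p = 0.00229). Smarcad1, a remodeller that binds Trim28, went from 95.8, 86.5 and 97.1 FPKM to 69.6, 59.5 and 71.4 FPKM (-0.48 ± 0.06, adjusted p = 0.00250). The HP1 gene Cbx3 fell by 0.39 on the log2 scale (adjusted p = 0.00499), while the HP1 genes Cbx1 (adjusted p = 0.118) and Cbx5 (adjusted p = 0.297) did not pass. Nr2c1, an orphan nuclear receptor, went from 2.59, 3.06 and 2.58 FPKM to 6.03, 8.55 and 6.71 FPKM (1.10 ± 0.08, adjusted p = 0.000654). The calls of Atrx, Hdac1, Sumo2 and Dnmt1 were lost without at least 1 of the lines.

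Other zinc finger families, at a mean of 2 FPKM or more, were counted in the same fit. Of 35 Zbtb genes 8 rose and 11 fell, and of 12 Zc3h genes, which encode CCCH proteins, 1 rose and 3 fell. Of 10 Zscan genes 4 rose and 1 fell, and of 7 Zkscan genes 3 rose and 1 fell. Among all genes at that level, 41.2% rose and 21.8% fell. The shares that rose lay near this for Zscan and Zkscan and below it for Zbtb and Zc3h. The shares that fell lay below it for Zscan and Zkscan and above it for Zbtb and Zc3h. Under all 3 scalings the Zbtb counts were 5 and 11, the Zc3h counts 0 and 3, the Zscan counts 0 and 1 and the Zkscan counts 1 and 1. Of all genes tested, 23.5% rose and 19.2% fell under all 3. The Zscan genes turned to 3 higher and 4 lower with median-of-ratios scaling and to 0 and 6 with quantile normalization. The difference between these families and the Zfp genes was not tested.

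The lines differed from each other in few members, and the scramble line differed from the wild-type line as the Carm1 shRNA line did in the leading genes. Between the Carm1 shRNA and the scramble line, averaged over both treatments, 0 members were called (limma), where 0.0% of all genes were higher and 0.0178% lower. At an unadjusted p under 0.05 there were 17 higher and 9 lower members, 9.77% against 10.6% of all genes. Between the Carm1 shRNA and the wild-type line 9 members were higher (2.92% of all genes were) and 1 lower (2.76%), and between the scramble and the wild-type line 3 were higher (0.748%) and 1 lower (1.04%). These contrasts share libraries and are read side by side.

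**Figure D4:**
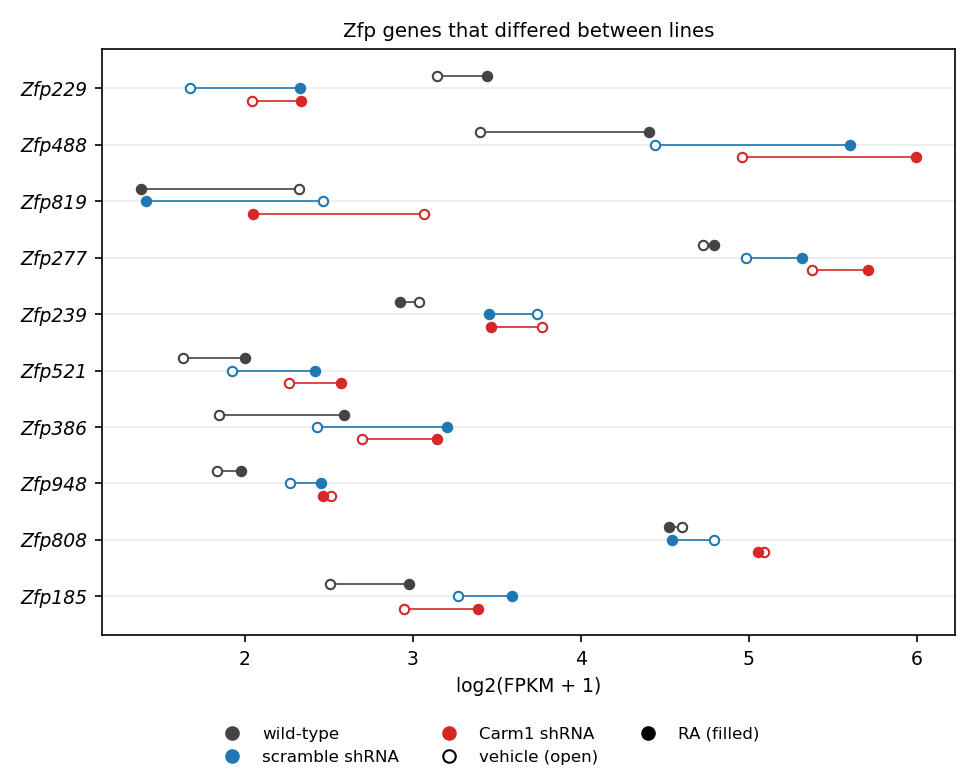
Level in each library, as log2(FPKM + 1), of 10 Zfp genes called in a contrast between lines, with open points for vehicle and filled points for RA, joined for each line. The wild-type line (grey) is highest for Zfp229 and lowest for Zfp488 under both treatments, with the scramble (blue) and Carm1 shRNA (red) lines on the same side of it.

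Zfp488 was lowest in the wild-type line, with levels given above. It was higher by 1.57 ± 0.08 in the Carm1 shRNA line (adjusted p = 0.00466) and by 1.12 ± 0.08 in the scramble line (adjusted p = 0.0179), and the 2 shRNA lines did not pass against each other (0.45 ± 0.08, adjusted p = 0.203). Zfp229, an A box member on chromosome 17, was highest in the wild-type line, at 7.83, 2.19 and 3.11 FPKM with vehicle and 9.86, 4.02 and 4.04 FPKM with RA. The Carm1 shRNA line differed from it by -1.10 ± 0.12 (adjusted p = 0.0224) and the scramble line by -1.29 ± 0.12 (adjusted p = 0.0243). Lines were also compared by their levels within each treatment, with no test. A line stood apart where its log2(FPKM + 1) differed by at least 1, in the same direction, from both other lines. With vehicle, the wild-type line stood apart in this way for 1 member above (0.543% of all genes), Zfp229, and 1 below (0.0623%), Zfp488. With RA the same 2 members did so (0.481% of all genes above and 0.383% below). No member stood apart in this way in the scramble line (0.00891% of all genes above and 0.00891% below with vehicle, 0.0267% and 0.0445% with RA). None did in the Carm1 shRNA line either (0.0891% and 0.0802% with vehicle, 0.169% and 0.143% with RA).

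The other members called against the wild-type line were higher in an shRNA line. Zfp277, a partner of Polycomb proteins, stood at 25.4, 30.6 and 40.5 FPKM with vehicle and 26.8, 38.8 and 51.3 FPKM with RA, and the Carm1 shRNA line was higher than the wild-type by 0.78 ± 0.10 (adjusted p = 0.0252). The scramble line lay between the other two under both treatments. Zfp819 was higher in the Carm1 shRNA line by 0.71 ± 0.08 (adjusted p = 0.0224), and Zfp386 by 0.70 ± 0.11 (adjusted p = 0.0341). Zfp239, Zfp521, Zfp948 and Zfp808 differed by 0.64, 0.60, 0.58 and 0.51. In the scramble line Zfp185, an actin-associated protein, was higher by 0.69 ± 0.08 (adjusted p = 0.0343) and Zfp239 by 0.62 ± 0.09 (adjusted p = 0.0466). With the third line left out of the fit, the Carm1 shRNA contrast with the wild-type kept 1 member, Zfp488, and the scramble contrast kept 2, Zfp229 and Zfp488.

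No member had a response to RA that differed in the Carm1 shRNA line after adjustment (0 of 266 by the limma interaction, which has 1 residual degree of freedom; 0.0% of all genes in each direction). At an unadjusted p under 0.05 there were 5 members, all with a lower response in that line (1.88%, against 3.64% of all genes in either direction). The largest of these was Zfp692, at 3.23, 3.58 and 4.63 FPKM with vehicle and 2.96, 3.74 and 2.45 FPKM with RA, an interaction of -0.68. Zfp36l1, given above, was another, at -0.50. The interaction was below 0 for 215 members (80.8%, against 58.1% of all genes), with a median of -0.14 against -0.03; with median-of-ratios scaling it was below 0 for 71.1% against 47.1%.

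The values behind this lean are given by line and by pairs of libraries. They come from the same 6 libraries as the interaction and are no separate evidence for it. The RA response was positive for 65.8% of members in the wild-type line, 66.5% in the scramble line and 50.4% in the Carm1 shRNA line, against 62.6%, 63.6% and 58.4% of all genes. With vehicle, the Carm1 shRNA library lay above the scramble library for 208 of the 266 members (78.2%, against 58.6% of all genes; median difference 0.12) and above the wild-type library for 208 (78.2%, against 53.7%; median 0.13). The scramble library lay above the wild-type library for 147 members (55.3%, against 48.2%). With RA, the Carm1 shRNA library lay above the scramble library for 92 members (34.6%, against 41.9%) and above the wild-type library for 147 (55.3%, against 51.1%).

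The vehicle lean of the Carm1 shRNA library was present under each scaling. With median-of-ratios scaling it lay above the scramble library for 189 members (71.1%, against 48.6%) and above the wild-type library for 201 (75.6%, against 51.9%). With quantile normalization it did so for 178 (66.9%, against 50.1%) and 198 (74.4%, against 52.0%). The scramble library leaned above the wild-type library too, by less with vehicle. Under these scalings it did so for 62.4% (against 53.0%) and 63.9% (against 52.6%) with vehicle. With RA the shares were 68.8% as deposited (against 58.3%), 61.3% with median-of-ratios scaling (against 51.1%) and 50.8% with quantile normalization (against 50.4%). All comparisons of the Carm1 shRNA library with vehicle rest on that same library, so they are not independent of each other. With 1 library per group there is no replicate check. The median differences were small. None of the 266 was called against the scramble line, but that contrast averages both treatments. It therefore does not test the vehicle libraries alone, and no test of them was made.

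**Figure D5:**
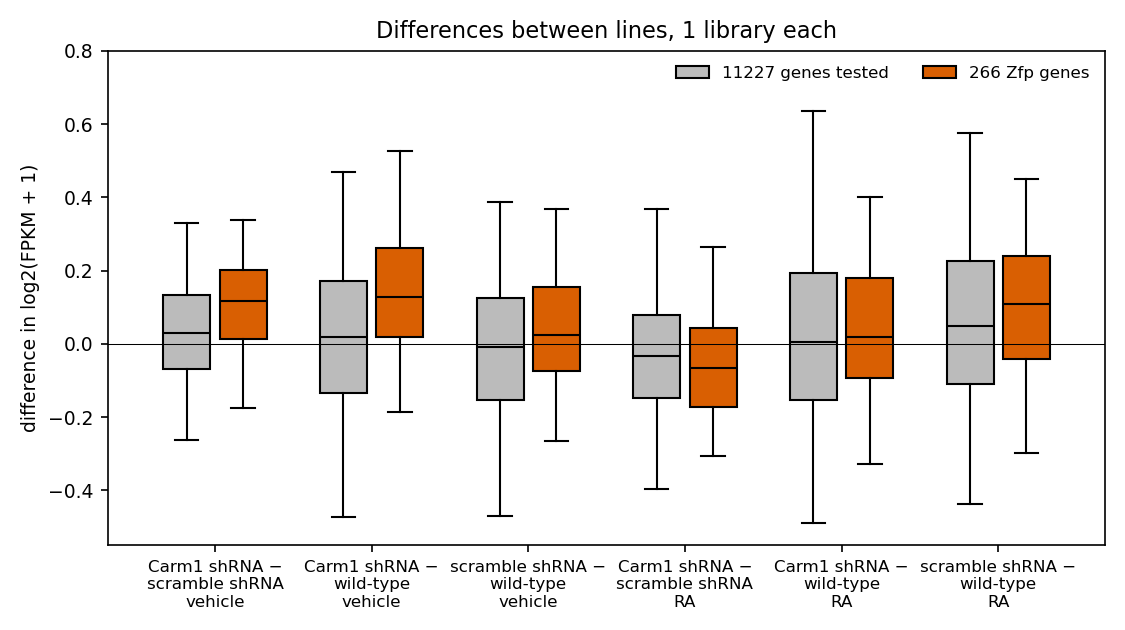
Differences in log2(FPKM + 1) between pairs of libraries for all 11227 genes tested (grey) and the 266 Zfp genes (orange). Boxes run between the quartiles with the median as a line, and whiskers end at percentiles 5 and 95; the boxes of the Zfp genes lie above 0 for the Carm1 shRNA library with vehicle against each other line, with medians of 0.12 and 0.13, and below 0 at the median against the scramble library with RA.

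Across the series, libraries summed to between 505266 and 537592 FPKM, and 10630 to 11518 genes reached 1 FPKM, more with RA than with vehicle in every line. Depth, estimated from the smallest steps between low values, was 24300000 to 35100000 reads, lowest in the scramble vehicle library. At this depth the lowest library of the median member held an estimated 465 reads, and 3 members had under 100 reads in some library. Of 8 embryonic stem cell markers 6 fell and 0 rose, with a sum of 5110 to 5410 FPKM with vehicle and 2790 to 4270 FPKM with RA, and Zfp42, left out above, went from 719, 643 and 708 FPKM to 445, 261 and 388 FPKM. All 6 primitive endoderm markers tested, of 9 listed, rose, with the list's sum going from 31.7 to 35.1 FPKM up to 119 to 138 FPKM. Of 5 neural markers tested 3 rose and 1 fell. The 6 listed summed to 121 to 142 FPKM with vehicle and 98.0 to 135 FPKM with RA, most of it from Tubb3 (108 to 128 FPKM with vehicle). The fibroblast list summed to 1.61 to 2.16 FPKM with vehicle and 3.88 to 7.45 FPKM with RA. Of its 3 markers tested, 2 rose and 1 fell. Col1a1 went from 0.22, 0.203 and 0.251 FPKM to 1.13, 2.17 and 3.05 FPKM. Col1a2 went from 0.0287, 0.0079 and 0.0298 FPKM to 1.86, 3.75 and 1.56 FPKM. Thy1 went from 1.83, 1.43 and 1.27 FPKM to 0.41, 0.752 and 0.732 FPKM. Col3a1, Lum and Postn were under 0.1 FPKM in every library. In bulk RNA, fewer cells of a type and less RNA per cell cannot be told apart; the part of these markers in the changes of the Zfp genes was not tested.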

How the data were processed

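Single-end 51-base reads were made from 6 libraries, per the labels' protocols. The deposited values are FPKM; the submitters' processing notes name TopHat2, Cufflinks and build mm9. Neither tool versions nor strand use nor any scaling between libraries is given in the sources used here. Of 20793 rows, 2 with a failed estimate were left out, and a repeated symbol was represented by its row of highest mean (331 rows dropped), for a total of 20460 genes.

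The 11227 genes whose mean reached 1 FPKM were fitted on log2(FPKM + 1), which understates the change of low genes, as line plus treatment (limma 3.58.1, R 4.3.3). The line is the block, since the same 3 lines were measured under both treatments; 2 residual degrees of freedom remain. The Benjamini-Hochberg adjustment ran over all genes tested, with a threshold of 0.05. Contrasts between lines came from this fit, and a second fit gave the interaction of treatment with the Carm1 shRNA line (1 residual degree of freedom). Since no label describes a replicate culture, the p-values reflect the spread between these libraries alone, which may be technical. The fit was tested on simulated data. Alternatives were other scalings (median-of-ratios and quantile), a pseudocount of 0.1, no filter or a mean of at least 5 FPKM, a variance trend, no block, and each line left out.

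The members, the lists and the tests were chosen with earlier results of these data known. Named genes were the 15 higher and 15 lower members that passed and moved alike in all lines, ordered by their smallest response, the 10 highest by mean, members called between lines, up to 4 per cluster, and a list of members of known role; 1 gene that the rule names is not reported here. A box, C2H2 (C, 2 to 4 residues, C, 12, H, 3 to 5, H) and CCCH (C, 7 to 10, C, 4 to 6, C, 3, H) patterns were searched in the translated coding sequences of GENCODE M21 (GRCm38), where RefSeq proteins had been planned; 264 members were matched by accession and 2 by symbol. Gene positions are the deposited mm9 positions, with starts raised by 1 to count from 1. Clusters have at least 3 members with at most 500 kb between neighbours. Read depth was estimated from the smallest steps of low values, and read counts from it are approximate. Overlapping loci of 6 members, among them Zfp142, Zfp219 and Zfp687, could share reads with a neighbour.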

Additional observations from a re-analysis of the deposited data

How the results depend on the processing

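The count of members that rose was 89 and of those that fell 48 with the values as deposited. It became 55 and 80 with median-of-ratios scaling, 27 and 135 with quantile normalization, and 41 and 27 with no filter on low values, where more genes share the adjustment. It was 55 higher when only genes at a mean of 5 FPKM or more were fitted, and 49 higher among members at that level. Leaving out 1 line at a time gave 48 to 83 higher and 24 to 44 lower. Without the line as a block the counts were 65 and 35; the lines pair the libraries by design, and 14 of 71 named genes then missed the threshold, Zfp488 and Zfp534 among them; with no filter 13 did, Zfp821, Zfp365, Zfp518b and Zfp428 among them. For A box members the counts of 36 and 17 became 19 and 34 with median-of-ratios scaling, 6 and 64 with quantile normalization and 10 and 10 with no filter. In the fit from a mean of 5 FPKM on, 46 A box members remained, of which 13 rose and 13 fell (28.3% each). Among such members in the larger fit, 12 rose and 12 fell. With a line left out the A box counts were 13 to 29 and 6 to 17. The 10 members called between the Carm1 shRNA and wild-type lines became 0 with no filter, 22 with a variance trend and 1 without the scramble line. The 4 called between the scramble and wild-type lines became 2 with quantile normalization, 1 with a pseudocount of 0.1, 0 with no filter, 8 with genes from a mean of 5 FPKM on, 13 with a variance trend and 2 without the Carm1 shRNA line. A limit of 1.5-fold in place of 2-fold gave 8 members apart from both other lines in place of 2. The RA responses of Zfp521 (-0.037) and Zfp318 (-0.079) turned negative with quantile normalization, from 0.39 and 0.27. Members under 20% of shared words, a split chosen after seeing the data, gave 78 higher and 38 lower. Apart from fewer genes or libraries in a fit, the cause of these changes was not tested. Low levels limit the family: 179 of 266 members are under 10 FPKM.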

Other observations

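Zfp genes with a mean between 1 and 2 FPKM are too low for the family described above but were in the fit. Of these 43 genes, 21 rose with RA and 0 fell (limma, adjusted p under 0.05, values as deposited; 42.9% of all genes tested rose and 20.7% fell). The counts were not set against other genes of the same level, nor made under the other scalings. Among all genes at a mean of 2 FPKM or more, 41.2% rose and 21.8% fell. Tested genes below that level therefore rose more often, and fell less often, than the shares of all genes given here.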
